A study of Mus musculus with 2 samples.

Results

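The 82 genes described here encode proteins of the cytosolic ribosome, and they were examined for DLX2 peaks at their ends in the maxillary process, the facial swelling of the embryo from which most of the upper jaw grows. They were chosen by symbol from 21779 protein-coding genes: *Rpl* or *Rps* followed by a number, with an optional letter or l ending, and *Rpsa*, *Rplp0*, *Rplp1* and *Rplp2*. Pseudogenes and the *Rps6k* kinase genes were left out. Of the 82 genes, 51 belong to the large subunit (*Rpl*) and 31 to the small subunit (*Rps*). The symbol rule uses no peak value, but the gene family was picked with earlier results of these data known. The data were 2 CUT&Tag libraries made with an antibody to DLX2 from maxillary process cells of wildtype C57BL/6 embryos at E12.5, midway through gestation, called replicate 1 and replicate 2. In CUT&Tag, an antibody guides a transposase to cut and tag the DNA around its target, so that fragments pile up where the target sits. Both libraries were of 1 group, with 0 control libraries used here, and the labels do not say whether they came from separate litters.

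Ribosomal proteins are made in nearly every cell, and growing embryonic tissue needs them in large amounts. Their promoters are textbook housekeeping promoters, rich in G and C and open in most cell types. Many of their transcripts begin with a C followed by a run of pyrimidines, the 5′ terminal oligopyrimidine tract through which their translation is tuned to growth signals. DLX2 is a homeodomain factor that binds sites built around TAATT and is known for patterning the jaws and the forebrain, not for control of ribosome genes. These genes therefore show how often peaks of these lists lay near the ends of broadly used genes.

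The promoter sequences at the centre of the comparison are shown for 3 genes. *Rpl31* was the only gene with a peak of each replicate within 2 kb of its ends. *Rpl27a* had the peak with the highest fold enrichment, and *Rpl27* was the only one of the 62 genes with an annotated promoter window whose window itself met a peak; these 2 were chosen for display after their values were seen. Each sequence is the 250 bases before the annotated start, from RefSeq on GRCm38.p6, the build mm10, plus strand, 5′ to 3′. *Rpl31* lies at chr1:39367601-39367850, *Rpl27a* at chr7:109518945-109519194 and *Rpl27* at chr11:101441995-101442244. In *Rpl31* and *Rpl27a*, capitals mark every match to the 8 motifs searched, which are spelled out with the promoter values. In *Rpl27*, capitals mark the 96 bases covered by the replicate 2 peak.
Rpl31: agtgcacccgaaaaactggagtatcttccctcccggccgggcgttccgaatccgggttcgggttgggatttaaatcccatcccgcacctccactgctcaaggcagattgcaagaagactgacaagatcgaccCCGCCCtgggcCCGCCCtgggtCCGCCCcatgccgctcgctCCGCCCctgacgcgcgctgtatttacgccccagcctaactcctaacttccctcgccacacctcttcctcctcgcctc
Rpl27a: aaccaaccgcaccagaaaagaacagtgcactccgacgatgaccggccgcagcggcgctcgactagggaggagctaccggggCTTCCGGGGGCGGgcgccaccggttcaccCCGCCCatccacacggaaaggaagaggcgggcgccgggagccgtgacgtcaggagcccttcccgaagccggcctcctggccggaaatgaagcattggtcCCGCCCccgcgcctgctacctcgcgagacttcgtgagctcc
Rpl27: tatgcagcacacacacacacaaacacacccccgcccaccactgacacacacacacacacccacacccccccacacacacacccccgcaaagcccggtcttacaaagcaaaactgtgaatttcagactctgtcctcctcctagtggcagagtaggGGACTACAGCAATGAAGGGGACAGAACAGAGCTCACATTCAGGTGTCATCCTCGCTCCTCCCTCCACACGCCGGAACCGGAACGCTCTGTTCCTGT

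Most ribosomal protein genes had no peak near their ends, and no gene had the same site in both libraries. In replicate 1, 4 of 82 genes had a peak within 2 kb of either end, or 4.88% (95% Wilson interval 1.91 to 11.9%), where 11.1% of all coding genes did. In replicate 2, 20 of 82 genes had one, or 24.4% (interval 16.4 to 34.7%), where 26.6% of all coding genes did. A peak of either replicate was present for 23 genes, or 28.0% (interval 19.5 to 38.6%), against 31.9% of all coding genes. A peak of each replicate was present for 1 gene, or 1.22% (interval 0.216 to 6.59%), against 5.86% of all coding genes. A shared region, meaning sequence covered by a peak of each replicate, was present for 0 of 82 genes, which allows a share of up to 3.66%; 3.49% of all coding genes had one. The intervals cover counting error only.

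Against the other 21697 coding genes, the share of ribosomal protein genes was lower by 4.25 ± 2.88 percentage points (SD, n = 2). The difference was -6.29 points in replicate 1 and -2.21 points in replicate 2. Both differences were below 0, but in each replicate the interval of the ribosomal protein genes held the share of the other genes, 11.2% and 26.6%. No excess of peaks within 2 kb of either end of these genes was therefore detectable in either library. No test was made, because the design has 1 group and the genes of 1 library are not replicates.

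Peaks rested on few fragments, and replicate 2 was the deeper library. The deposited lists held 28061 peaks in replicate 1 and 62093 in replicate 2. The study reports fewer peaks for each of its replicates, so the lists counted here are not its reported peak set. Fragments at a summit were inferred from the fold and p of the peak caller. At the lowest background of each library, 0.387 fragments in replicate 1 and 1.101 in replicate 2, a listed peak had at least 4 and at least 6 fragments. A promoter with fewer fragments than this would not be listed, so the absence of a peak says only that none was detectable at this depth.

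The shares were also taken in narrower and wider windows. Within 0.5 kb of either end, 0 of 82 genes had a replicate 1 peak, which allows a share of up to 3.66%, and 3.40% of all coding genes had one. In replicate 2, 10 of 82 genes did, or 12.2% (interval 6.76 to 21.0%), against 10.02% of all coding genes. Within 1 kb, the shares were 1.22% in replicate 1 and 15.9% in replicate 2, against 6.15% and 16.2%. Within 5 kb, 12 genes had a replicate 1 peak, or 14.6% (interval 8.57 to 23.9%), against 23.6%. In replicate 2, 40 genes did, or 48.8% (interval 38.3 to 59.4%), against 46.6%. The replicate 2 share thus lay slightly above that of the other genes at 0.5 and 5 kb and slightly below it at 1 and 2 kb, always inside its interval.

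**Figure D1:**
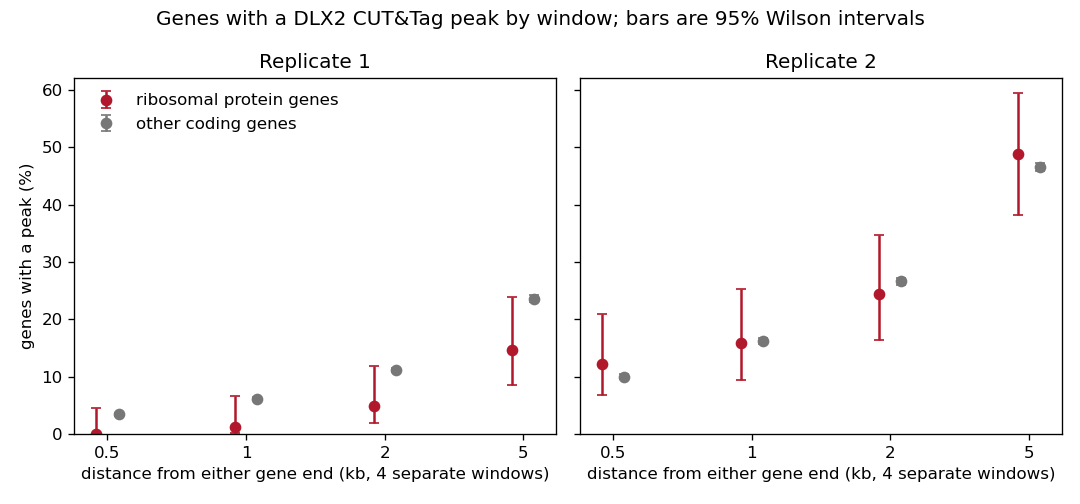
Share of genes with a peak (percent) for windows of 0.5, 1, 2 and 5 kb around either gene end, in replicate 1 (left) and replicate 2 (right); red is the 82 ribosomal protein genes, grey the 21697 other coding genes, and bars are 95% Wilson intervals. In replicate 1 the red points lie below the grey ones at each window; in replicate 2 they lie close together, at 24.4% and 26.6% for 2 kb.

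The annotated end where transcription starts was known for 62 of the 82 genes. Within 2 kb of an annotated start, 1 of the 62 genes had a replicate 1 peak, or 1.61% (interval 0.285 to 8.59%), against 6.15% of all coding genes with a start. In replicate 2, 8 genes had one, or 12.9% (interval 6.69 to 23.4%), against 15.7%. The replicate 1 gene was *Rpl31*, and the replicate 2 genes were *Rpl10l*, *Rpl14*, *Rpl22*, *Rpl27*, *Rpl27a*, *Rpl34*, *Rpl37* and *Rps16*. In the promoter window of 250 bases before to 50 after the start, 0 of 62 genes had a replicate 1 peak and 1 had a replicate 2 peak. The shares of all coding genes were 0.972% and 3.26%. With 62 genes, 1 gene is already 1.61%, so these counts cannot show a share below that of all coding genes.

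Gene length differed, so the density of peaks was compared as well. Ribosomal protein genes had a median length of 3.17 kb, against 17.3 kb for the other coding genes, and their windows at both ends therefore run together more often. Among coding genes under 10 kb, 9.46% of the other genes had a replicate 1 peak within 2 kb and 24.1% a replicate 2 peak. The shares were 4.94% and 23.5% for the 81 ribosomal protein genes of that size. In the other windows, the replicate 2 share of these short ribosomal protein genes was the higher one. It was 12.3% against 9.38% at 0.5 kb, 16.0% against 15.5% at 1 kb and 48.1% against 38.0% at 5 kb. The interval at 5 kb was 37.6 to 58.9%. In replicate 1 their share was the lower one at each window. Per 100 kb of window, the ribosomal protein genes had 0.694 summits in replicate 1 (95% Poisson interval 0.189 to 1.78) and the other coding genes 1.52. In replicate 2, they had 3.82 (interval 2.39 to 5.78) and the other genes 3.98. In the flanks from 2 to 10 kb outside the genes, the ribosomal protein genes had 1.45 summits per 100 kb in replicate 1 (interval 0.872 to 2.26) and 4.34 in replicate 2 (interval 3.29 to 5.63). The windows thus had 0.479 times the density of their own flanks in replicate 1 and 0.879 times in replicate 2. The same ratio for the other coding genes was 1.03 and 1.11. The intervals of window and flank overlapped for the ribosomal protein genes in both replicates.

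**Figure D2:**
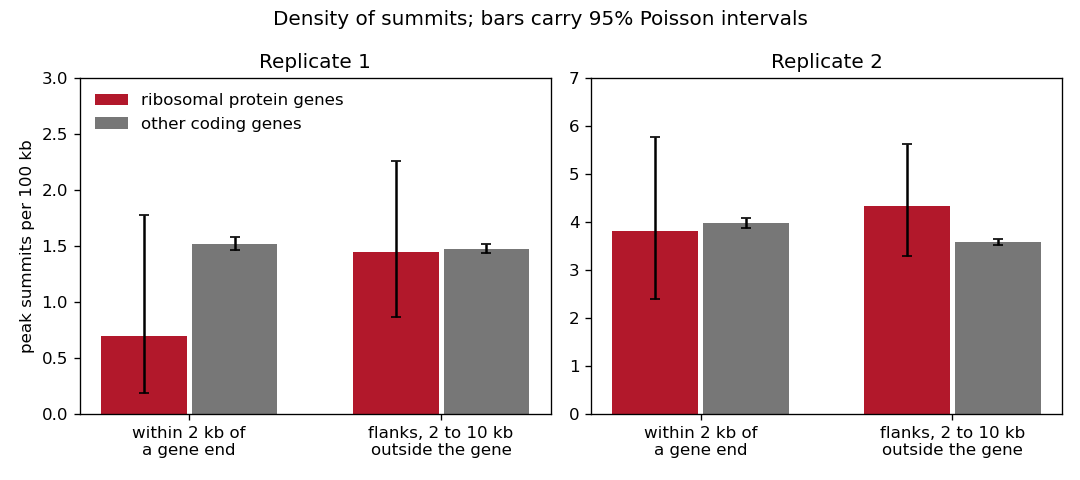
Peak summits per 100 kb within 2 kb of gene ends and in the flanks from 2 to 10 kb outside the genes, in each replicate; red bars are ribosomal protein genes, grey bars other coding genes, and error bars are 95% Poisson intervals. The lowest bar is the ribosomal protein window in replicate 1, at 0.694, and the axes of the replicates differ.

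*Rpl31*, a large subunit protein near the exit of the peptide tunnel, was the only gene met in both libraries. Its replicate 1 peak lay at chr1:39368835-39368962, with a fold of 5.05 and 6 fragments at the summit. Its replicate 2 peak lay at chr1:39370266-39370578, with a fold of 4.46 and 9 fragments. Both summits lay inside the gene but 1562 bp apart, and the peaks did not overlap. The replicate 2 summit was 1011 bp from an end of the neighbour *Tbc1d8* and 1427 bp from the nearer end of *Rpl31*.

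Counting *Rpl31*, 4 of 82 genes had a replicate 1 peak, or 4.88%, against 11.1% of all coding genes. In replicate 1 alone, 3 genes had a peak, of which 2 are described. *Rps19*, a small subunit gene known for mutations in Diamond-Blackfan anaemia, had one inside the gene at chr7:24888171-24888318 with a fold of 4.26 and 6 fragments. *Rps21*, also of the small subunit, had one at chr2:180260040-180260146 with a fold of 3.65 and 6 fragments. The summit of the *Rps21* peak was nearer to an end of the neighbour *Cables2*, at 1586 bp, than to its own gene. No replicate 1 summit lay within 1 kb of an end of a ribosomal protein gene, the nearest being that of *Rpl31* at 1071 bp.

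Counting *Rpl31*, 20 of 82 genes had a replicate 2 peak, or 24.4%, close to the 26.6% of all coding genes. In replicate 2 alone, 19 genes had a peak, and the 5 with the highest fold were *Rpl27a*, *Rpl21*, *Rpl34*, *Rps2* and *Rpl17*. *Rpl27a* had a fold of 5.71 and 11 fragments at chr7:109519326-109519552, with its summit 300 bp past the annotated start. That fold was reached by 10.3% of all replicate 2 peaks. *Rpl21* had 2 peaks, the higher at chr5:146832836-146833275 with a fold of 5.24, 10 fragments and a summit 52 bp from the gene end. Its second peak had a fold of 3.81 and lay 577 bp inside the gene.

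The other leading peaks lay farther from the ends. *Rpl34* had a fold of 5.24 and 10 fragments at chr3:130728424-130728678, 1718 bp from the nearer end and inside the gene. *Rps2*, at the mRNA entry side of the small subunit, had a fold of 4.82 and 10 fragments at chr17:24716290-24716636, where the summit lay inside *Rnf151*. *Rpl17* had a fold of 4.76 and 9 fragments, with a summit 1941 bp inside the gene.

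Among the other genes with a replicate 2 peak, *Rplp2*, an acidic protein of the ribosomal stalk, had a fold of 4.72, *Rps16* 4.69 and *Rps10* 4.57. Lower folds, from 2.92 to 3.81, were found at *Rpl27*, *Rpl10l*, *Rps29*, *Rpl22*, *Rpl32*, *Rpl14*, *Rps15a*, *Rpl35*, *Rpl37* and *Rpl19*.

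**Figure D3:**
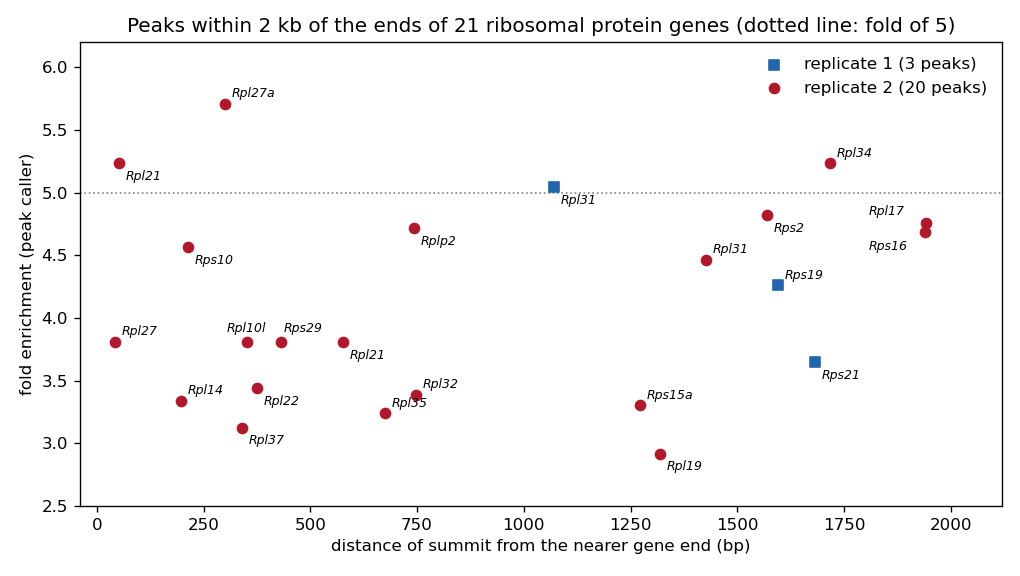
Fold enrichment given by the peak caller against the distance of the summit from the nearer end of the ribosomal protein gene (bp) for the peaks of 21 of the genes; blue squares are 3 peaks of replicate 1, red circles 20 peaks of replicate 2, and the dotted line marks a fold of 5. The replicate 1 summits all lie more than 1 kb from the ends, and 4 peaks lie above the line.

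None of the peaks at ribosomal protein genes recurred at its site, and their median folds were close to those at other coding gene ends. The 4 replicate 1 peaks had a median fold of 4.65, and peaks at other coding gene ends 4.33. The 22 replicate 2 peaks had a median fold of 3.81, and peaks at other coding gene ends 3.93. At a −log10 q of at least 5, 0 of 82 genes had a peak in either replicate, which allows a share of up to 3.66% in each. The shares of all coding genes lay below that limit, at 0.643% in replicate 1 and 1.97% in replicate 2. At a fold of at least 5, 2 of 82 genes had a replicate 1 peak and 3 of 82 a replicate 2 peak, against 2.92% and 3.88% of all coding genes. The differences from the other coding genes were small, at -0.478 and -0.227 points. The other replicate met 0 of the 22 replicate 2 peaks, which allows a share of up to 13.6%, and 11.8% of the peaks at other coding gene ends were met. In replicate 1, 0 of the 4 peaks were met, a number too small to limit the share, and 30.8% of those at other coding gene ends were met.

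Position within the gene varied. The counts that follow only describe these peaks, because the same counts were not taken for peaks at other coding gene ends. The windows had a median of 7.17 kb and the genes a median length of 3.17 kb. Part of each window is thus gene body by definition. In replicate 2, 13 of the 22 summits lay in the body of the ribosomal protein gene and 9 outside it. Of the 15 replicate 2 peaks with a known start, 6 had their summit within 0.5 kb of it, those of *Rpl27*, *Rpl14*, *Rpl27a*, *Rpl37*, *Rpl10l* and *Rpl22*. In 7 of the 22, the peak was also within 2 kb of an end of another coding gene, and in 4 that end was the nearer one. The peak of *Rpl27* was the closest to a start, with its summit 43 bp before it, a fold of 3.81 and 7 fragments. *Rpl10l*, an intron-poor copy of the X-linked *Rpl10* known for expression in testis, had a replicate 2 peak of the same fold, 3.81, and the same 7 fragments.

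The remaining 59 genes had no peak within 2 kb in either library. Of the large subunit, 36 genes were without a peak, namely *Rpl10*, *Rpl10a*, *Rpl11*, *Rpl12*, *Rpl13*, *Rpl13a*, *Rpl15*, *Rpl18*, *Rpl23*, *Rpl23a*, *Rpl24*, *Rpl26*, *Rpl28*, *Rpl29*, *Rpl3*, *Rpl30*, *Rpl32l*, *Rpl35a*, *Rpl36*, *Rpl36a*, *Rpl36al*, *Rpl37a*, *Rpl38*, *Rpl39*, *Rpl39l*, *Rpl3l*, *Rpl4*, *Rpl41*, *Rpl5*, *Rpl6*, *Rpl7*, *Rpl7a*, *Rpl8*, *Rpl9*, *Rplp0* and *Rplp1*. Of the small subunit, 23 were without one, among them *Rps12*, *Rps13*, *Rps14*, *Rps15*, *Rps18*, *Rps20*, *Rps23*, *Rps24*, *Rps25*, *Rps26*, *Rps27*, *Rps27a*, *Rps27l*, *Rps28*, *Rps3*, *Rps4x*, *Rps6*, *Rps7*, *Rps9* and *Rpsa*. They include *Rps6*, the classic target of S6 kinase, *Rpl5* and *Rpl11*, which bind MDM2 when ribosome assembly fails, and *Rpl38*, known for its part in axial patterning of the mouse skeleton.

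Both subunits contributed genes with a peak. A replicate 1 peak was present for 2 of 51 large subunit genes (3.92%, interval 1.08 to 13.2%) and 2 of 31 small subunit genes (6.45%, interval 1.79 to 20.7%). A replicate 2 peak was present for 14 large subunit genes (27.5%, interval 17.1 to 40.9%) and 6 small subunit genes (19.4%, interval 9.19 to 36.3%). The intervals of the subunits overlapped in each replicate.

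Distances to the nearest summit place the 2 kb limit. The median distance from a ribosomal protein gene end to the nearest summit was 27.1 kb in replicate 1 (quartiles 10.1 and 50.2 kb) and 6.04 kb in replicate 2 (quartiles 2.23 and 16.0 kb). For the other coding genes it was 17.9 kb (quartiles 5.50 and 59.0 kb) and 5.90 kb (quartiles 1.94 and 19.9 kb). In replicate 2, *Rps16* at 1940 bp and *Rpl17* at 1941 bp were just inside the limit, and *Rps18* at 2195 bp and *Rps28* at 2315 bp were just outside it. In replicate 1, *Rps21* at 1681 bp was the farthest inside, and *Rpl22* at 2280 bp and *Rpl38* at 2333 bp were just outside. The farthest gene in replicate 1 was *Rpl10*, 379709 bp from a summit, and in replicate 2 it was *Rps12*, at 68799 bp.

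**Figure D4:**
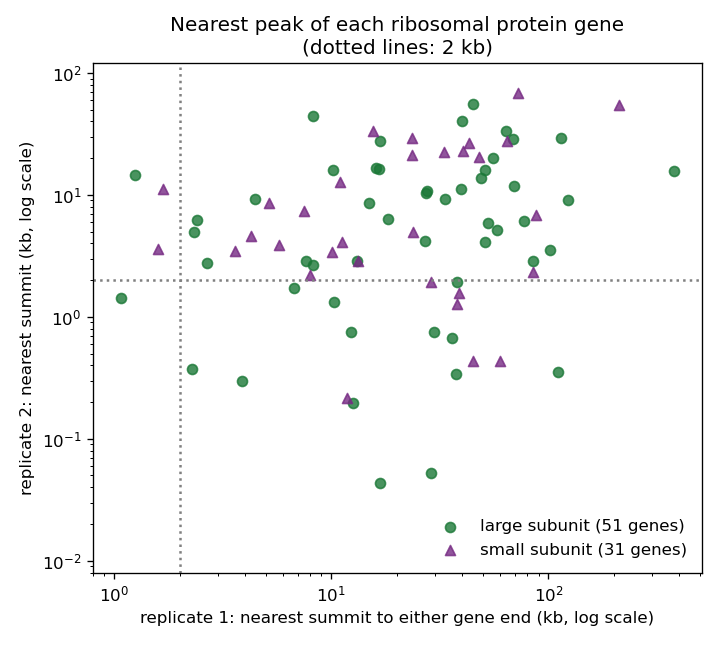
Distance from the nearer end of each of the 82 genes to the nearest peak summit (kb, log scales), replicate 1 on the x axis and replicate 2 on the y axis; green circles are large subunit genes, purple triangles small subunit genes, and dotted lines mark 2 kb. Only *Rpl31* lies below 2 kb on both axes.

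Other gene lists were set beside the ribosomal protein genes. Genes of mitochondrial ribosomal proteins, which serve the separate ribosome of the mitochondrion, had a replicate 1 peak in 13 of 78 cases (16.7%, interval 10.01 to 26.5%) and a replicate 2 peak in 20 (25.6%, interval 17.3 to 36.3%). Translation initiation and elongation factors had one in 11 of 71 cases (15.5%, interval 8.88 to 25.7%) and 19 (26.8%, interval 17.9 to 38.1%). Proteasome subunits, which degrade proteins, had one in 2 of 40 cases (5%, interval 1.38 to 16.5%) and 15 (37.5%, interval 24.2 to 53.0%). The intervals of these lists overlapped that of the cytosolic ribosomal protein genes in both replicates, but not every share lay inside that interval. In replicate 1, the shares of the mitochondrial ribosomal proteins and the translation factors lay above its upper limit of 11.9%. In replicate 2, the share of the proteasome subunits lay above its upper limit of 34.7%.

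Olfactory receptor genes, which are used by sensory neurons of the nose, had the lowest shares of these lists. Of 1109 such genes, 31 had a replicate 1 peak (2.80%, interval 1.98 to 3.94%) and 96 a replicate 2 peak (8.66%, interval 7.14 to 10.5%). The replicate 2 interval of the ribosomal protein genes, from 16.4 to 34.7%, lay above that of the olfactory receptors, whereas the replicate 1 intervals overlapped. The flanks of the olfactory receptors also had few summits, 0.507 per 100 kb in replicate 1 and 1.07 in replicate 2. The flanks of the ribosomal protein genes had 1.45 and 4.34. Olfactory receptor windows had 0.963 and 1.49 times the density of their own flanks, against 0.479 and 0.879 times for the ribosomal protein genes. These ratios carry no interval, and that of 0.479 rests on 4 summits in windows and 19 in flanks. Openness of the chromatin was not measured in these data, and its part in these shares and densities was not tested.

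**Figure D5:**
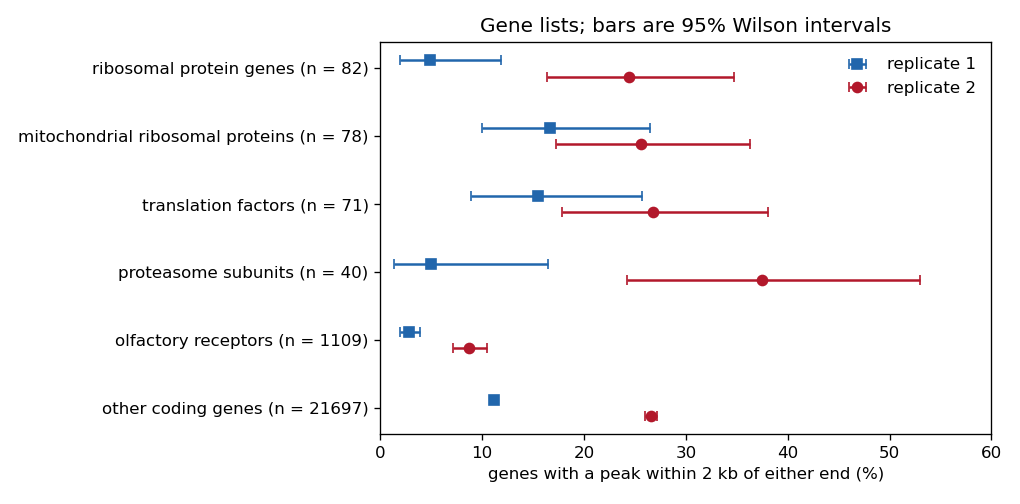
Share of genes with a peak within 2 kb of either end (percent) for the ribosomal protein genes, 4 other lists and the other coding genes; blue squares are replicate 1, red circles replicate 2, and bars are 95% Wilson intervals. The intervals of the ribosomal protein genes, at 4.88% and 24.4%, overlap those of the other housekeeping lists. The replicate 1 points of mitochondrial ribosomal proteins and translation factors, 16.7% and 15.5%, lie above that interval. The replicate 2 point of the proteasome subunits, 37.5%, does so too. Olfactory receptors are lowest at 2.80% and 8.66%.

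The promoters of the 62 genes were also read for motifs, on both strands, in the window of 250 bases before to 50 after each annotated start. Shares are of genes, and a gene counted where any of its windows held the letters. The 62 genes had 74 windows, and the 17492 coding genes with a start had 21263. The windows of the ribosomal protein genes had a median G and C content of 57.8%, little above the 56.3% of the other coding genes. The homeodomain letters TAATT were found for 22.6% of the ribosomal protein genes and 26.5% of all coding genes. The palindrome TAATTA, which contains TAATT on each strand, was in 3.23% and 5.37%. The E box CACGTG was in 9.68% and 8.91%, the Runx letters TGTGGT in 8.06% and 17.2%, and the TATA box TATAAA in 11.3% and 14.8%. Letters common at housekeeping promoters had higher shares, most clearly those of ETS. The ETS letters CCGGAAG were found for 25 ribosomal protein genes, or 40.3%, against 12.9% of all coding genes. The YY1 letters AAGATGG were found for only 9 genes, or 14.5%, against 7.18%. The SP and KLF letters GGGCGG were found for 37, or 59.7%, against 49.2%. No intervals were taken for the motif shares, so the smaller differences may lie within counting error. A match is a description of the letters and not a bound site.

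In the sequences shown, *Rpl31* had 4 matches to GGGCGG, all read as CCGCCC, that begin 118, 107, 96 and 77 bases before the start. *Rpl27a* had an ETS match 169 bases before the start that adjoins a GGGCGG match, and 2 more on the other strand. The upstream run of *Rpl27* had 1 match to GGGCGG, which lies 220 bases before the start, outside the part covered by the peak. None of the 3 runs held TAATT. At the start itself, a C followed by 4 pyrimidines was present for 14 of the 62 genes, or 22.6%, against 2.67% of all coding genes. A run of 8 pyrimidines led by a C near the start was present for 38.7% against 9.73%.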

How the data were processed

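DLX2 CUT&Tag peak lists of 2 wildtype samples (E12.5) were used. Per the labels, the authors used Trim Galore 0.4.5, Bowtie 1.1.2, MACS2 2.2.7 and the build mm10; the methods of the study name bowtie2 and another Trim Galore version, and the labels describe sonicated chromatin where the methods describe transposase tagging. Peaks were called by the authors in each sample on its own, with settings not given in the sources used here. The deposited fold is a ratio of fragments at the summit to a local background estimate. The deposited −log10 p and −log10 q are the peak caller's, and the lists stop at a q of 0.1. The deposited score was not used here.

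A gene had a peak where any base of it lay within 2 kb of either end of its RefSeq extent (GRCm38.p6). Genes before position 3000000, other than on Y, were left out. Exons were not used here. Values of a few single genes are not reported here. *Rps3a1* is outside the symbol pattern. Fragments at a summit were inferred as whole numbers n, with a fold of n plus 1 over background plus 1 and p a Poisson upper tail; this held for 100% of peaks within 0.001. No read totals were used, so depth is known only through these fragments. Annotated starts and sequences came from the RefSeq promoter table, which matched 62 members. The members and lists were chosen with earlier results of these data known. No enrichment or placement test was run. Densities were summed gene by gene, so a summit in the windows or flanks of more than 1 gene counted for each. Flanks were not cleared of the ends of neighbouring genes. Intervals given for shares of genes with a peak are 95% Wilson intervals, and those for densities are 95% Poisson intervals. Motif shares carry none. Where a count was 0, the share said to be allowed is 3 over the number of genes or peaks, not a Wilson limit. For 0 of 82 genes the Wilson upper limit was 4.48%. Named genes were those with a peak of each replicate, the 5 with the highest fold in each replicate alone and those with the most peaks. Reads shared with near-identical processed pseudogenes may be placed or lost in the authors' alignment. Gene calls and fragment recovery were tested on simulated data. The software was scipy 1.17.1, numpy 2.4.6 and pandas 2.3.3 under Python 3.11.15, with matplotlib 3.10.9 for plots.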

Additional observations from a re-analysis of the deposited data

How the results depend on the processing

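The number of ribosomal protein genes with a peak moved with the filter and the window. At a −log10 q of at least 5, 0 genes had a peak in replicate 1, in replicate 2 or in both. At a fold of at least 5, the numbers were 2, 3 and 0. Within 1 kb they were 1, 13 and 0, and within 5 kb 12, 40 and 8. With annotated starts only they were 1, 8 and 0. These changes follow from fewer peaks, narrower or wider windows and fewer genes. Requiring the peaks of the replicates to overlap by 1 bp left 0 genes, and the number ranged from 4 to 20 with 1 replicate left out. The difference from other coding genes in replicate 1 moved to -0.645 points at a −log10 q of at least 5 and to -0.478 points at a fold of at least 5. In replicate 2 it turned to 2.19 points within 5 kb; the cause was not tested. In the 2 kb window, using the summit, leaving out 5 paralogs, adding the paralogs ending in l1, the autosomes and genes under 10 kb kept the direction of both differences. Genes with an annotated start only, a setting chosen after seeing the data, kept it too. For genes under 10 kb, the replicate 2 difference was above 0 in the windows of 0.5, 1 and 5 kb. Of 58 alternatives, 37 kept the direction and stayed within 1.5 times the count or within 1 SD of the replicates. No paired analysis was possible because the samples form 1 group. With 2 libraries and 0 control libraries, DLX2 sites cannot be told apart from background cutting at open DNA, and few fragments limit what was detectable.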

Other observations

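Processed pseudogenes of ribosomal protein genes are numerous and closely resemble the transcripts of their parents. Pseudogenes were taken here by symbol, a ribosomal protein name followed by -ps and an optional number. Whether each is of the processed kind was not checked. Any ribosomal protein pseudogene under another symbol was counted with the other pseudogenes. Of 317 pseudogenes taken by symbol, 10 had a replicate 1 peak within 2 kb of either end (3.15%, 95% Wilson interval 1.72 to 5.71%). A replicate 2 peak was present for 33 (10.4%, interval 7.51 to 14.3%). Of 10013 other pseudogenes, 4.95% had a replicate 1 peak (interval 4.55 to 5.396%) and 11.9% a replicate 2 peak (interval 11.3 to 12.53%). Ribosomal protein pseudogenes had a median length of 0.529 kb and the others 0.941 kb, so their windows differ in size.

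Within 5 kb of either end, 8 ribosomal protein genes had a peak of each replicate (9.76%, interval 5.03 to 18.1%), against 16.7% of all coding genes.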
